A study of Arabidopsis thaliana with 12 samples.

Results

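The methyl viologen response of wild-type Arabidopsis thaliana was measured as RNA-seq counts in 6 libraries of the accession Col-0, which are 6 of the 12 libraries of the series. The 3 treated Col-0 libraries came from seedlings kept for 2 weeks on medium with 25 nM methyl viologen, and the other 3 from seedlings of the same age on that medium without it. Each library was RNA of seedlings, with 1% sucrose in the agar, 21 °C and 16 h light of 80 µmol m−2 s−1 per day in both groups. The remaining 6 libraries, 3 on methyl viologen and 3 on control medium, came from the med8 mutant. They enter the estimate of the spread that all groups share, with 5621 genes called from the Col-0 libraries alone and 7375 without med8 control replicate 3, against 5969, and their values are given where the Col-0 response is set against that of the mutant. The labels give neither the allele of med8, the hour of harvest nor what a replicate is beyond its number, so the p-values rest on how far these libraries vary, which may be technical. The members were chosen by label alone, the methyl viologen libraries minus the control libraries of Col-0, over all 21543 loci of the table.

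Methyl viologen, the herbicide also called paraquat, takes electrons from the acceptor side of photosystem I in the light and hands them to oxygen, which gives superoxide. Superoxide dismutases turn superoxide into hydrogen peroxide, and catalases, ascorbate peroxidase and thiol peroxidases remove the peroxide. Iron-sulfur clusters, which photosystem I and ferredoxin carry, are classic targets of superoxide. The concentration used was low enough for seedlings to be raised on it, so the libraries describe plants that grew with the compound and not a short exposure.

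Libraries held 33.35 to 34.69 M counts on methyl viologen and 31.52 to 33.07 M counts on control medium in Col-0. In a principal component analysis of the 6 Col-0 libraries the first component held 66.2% of the variance and separated the groups, at 35.52 to 50.17 on methyl viologen and −45.77 to −43.24 on control medium. The second component held 17.7% and set Col-0 control replicate 1, at 42.67, apart from the other libraries, at −33.52 to 10.11. Counts of that library differed from those of the other controls by a chi-square per degree of freedom of 26.82 and 35.94, against 9.149 between those 2, so no pair of libraries agreed within sampling noise. The mutated gene MED8, a subunit of the Mediator complex, had 22.2, 19.4 and 20.1 CPM with methyl viologen and 20.5, 20 and 18.9 CPM without it in Col-0, against 4.85 to 6.41 CPM in the med8 libraries.

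Of 20741 genes that passed the count filter, 5969 (28.8%) were called by edgeR's quasi-likelihood test at a Benjamini-Hochberg adjusted p under 0.05, 3191 of them higher (15.4% of genes tested) and 2778 lower (13.4%) on methyl viologen. In what follows "rose" and "fell" stand for such calls, a value after a gene name is a log2 fold change ± SE of methyl viologen over control, and CPM are TMM-scaled counts relative to library size, given for methyl viologen replicates 1 to 3 and then for control replicates 1 to 3. Most changes were small: the median size of a called change was 0.58 on the log2 scale, and 862 genes (4.16%) were called and at least 2-fold higher and 643 (3.1%) at least 2-fold lower. At least 8-fold changes were found in 98 genes upward and 62 downward. The median over all genes tested was −0.00125. Counts of list members that rose or fell are to be read beside the shares over all genes tested, 15.4% higher and 13.4% lower. Libraries of the groups did not overlap for 9164 genes (44.2%). Calls were more frequent at higher level: of the 4149 genes with the lowest level, up to 2.93 CPM, 567 rose and 433 fell, and of the 4148 with the highest, from 48.5 CPM, 704 rose and 832 fell.

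**Figure D1:**
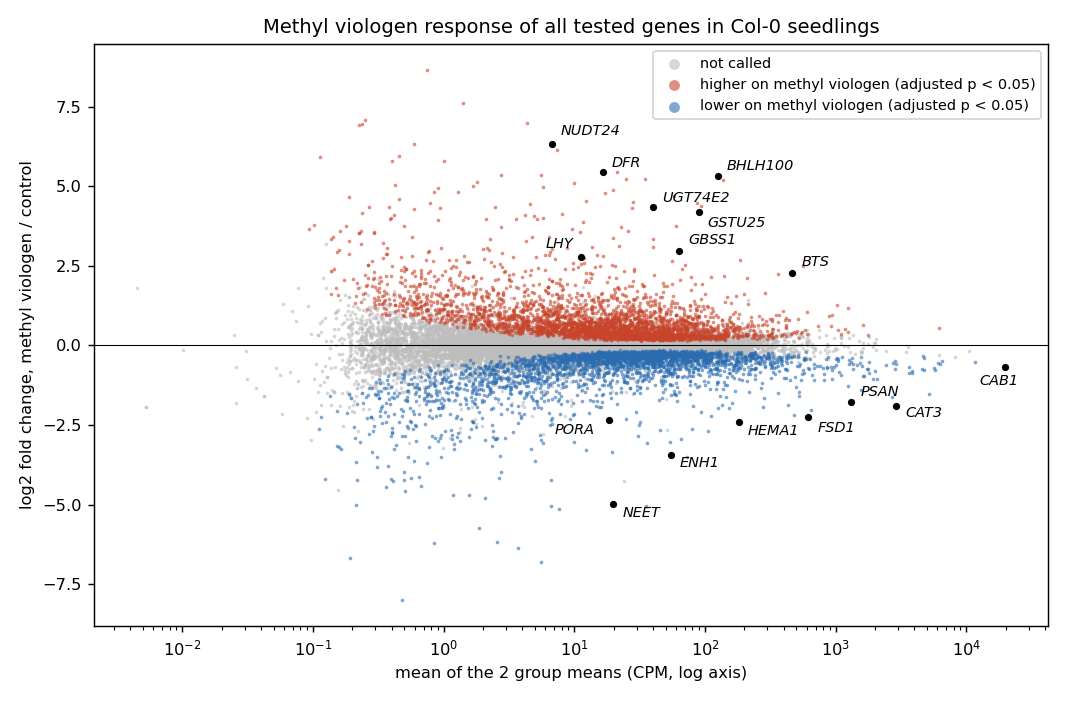
Log2 fold change of methyl viologen over control in Col-0 (vertical axis) against the mean of the group means in CPM (horizontal log axis) for the 20741 genes tested, with the 3191 higher genes in red, the 2778 lower genes in blue and others in grey. Black points are named genes of the text, from NUDT24 at 6.33 to NEET at −4.98.

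The upstream windows of 8 genes are shown first, because each holds a short motif whose share among the genes that rose or fell is given after them. Each is the 250 bases before the annotated start in RefSeq's TAIR10.1, 5′ to 3′ on the gene's strand. Capitals in the first 3 mark the mitochondrial dysfunction motif, a sequence bound by NAC factors such as NAC13 and NAC017 that carry stress signals from the mitochondrion to the nucleus. AT2G21640, annotated as a marker of the oxidative stress response, lies on chr2:9254128-9254377, plus strand, NDB2 on chr4:2572177-2572426, plus strand and NDB3 on chr4:11439507-11439756, minus strand, the last with the motif read from the opposite strand.
AT2G21640: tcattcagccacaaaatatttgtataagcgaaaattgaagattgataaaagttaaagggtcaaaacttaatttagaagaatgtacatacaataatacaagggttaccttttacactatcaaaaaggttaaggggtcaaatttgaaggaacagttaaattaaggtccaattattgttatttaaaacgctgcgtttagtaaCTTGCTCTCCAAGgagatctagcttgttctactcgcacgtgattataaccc
NDB2: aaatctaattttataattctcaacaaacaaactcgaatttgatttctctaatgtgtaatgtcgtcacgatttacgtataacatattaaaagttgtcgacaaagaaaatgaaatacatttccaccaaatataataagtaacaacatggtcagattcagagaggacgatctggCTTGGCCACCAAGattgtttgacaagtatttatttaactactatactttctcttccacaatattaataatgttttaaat
NDB3: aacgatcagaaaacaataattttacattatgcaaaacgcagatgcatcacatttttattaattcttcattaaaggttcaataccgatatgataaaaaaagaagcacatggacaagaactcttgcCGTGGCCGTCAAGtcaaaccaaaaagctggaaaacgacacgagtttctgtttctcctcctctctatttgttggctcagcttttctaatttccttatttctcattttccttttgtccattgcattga
Capitals in the next 3 mark the G-box CACGTG, a site of bHLH and bZIP factors, in genes of the iron shortage response. BHLH100 lies on chr2:17199455-17199704, minus strand, bHLH38 on chr3:21085246-21085495, minus strand and BTS, which holds the G-box 3 times, on chr3:6273716-6273965, plus strand.
BHLH100: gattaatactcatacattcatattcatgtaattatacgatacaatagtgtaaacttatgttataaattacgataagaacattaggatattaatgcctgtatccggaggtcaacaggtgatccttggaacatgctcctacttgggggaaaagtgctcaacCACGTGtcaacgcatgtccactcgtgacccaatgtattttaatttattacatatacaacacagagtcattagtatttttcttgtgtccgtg
bHLH38: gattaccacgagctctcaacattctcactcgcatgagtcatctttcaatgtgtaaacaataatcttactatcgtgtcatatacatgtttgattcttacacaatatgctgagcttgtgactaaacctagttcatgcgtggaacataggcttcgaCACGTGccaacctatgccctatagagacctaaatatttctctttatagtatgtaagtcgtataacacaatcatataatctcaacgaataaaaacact
BTS: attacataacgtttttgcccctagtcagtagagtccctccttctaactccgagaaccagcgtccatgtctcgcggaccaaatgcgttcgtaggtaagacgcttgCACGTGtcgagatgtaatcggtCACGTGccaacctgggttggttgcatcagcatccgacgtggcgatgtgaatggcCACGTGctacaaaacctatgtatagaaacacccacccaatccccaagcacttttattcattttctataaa
Capitals in the final pair mark the evening element AAAATATCT, read from the opposite strand, which CCA1 and its relatives bind. FKF1 lies on chr1:25508389-25508638, plus strand and TOC1 on chr5:24674713-24674962, plus strand.
FKF1: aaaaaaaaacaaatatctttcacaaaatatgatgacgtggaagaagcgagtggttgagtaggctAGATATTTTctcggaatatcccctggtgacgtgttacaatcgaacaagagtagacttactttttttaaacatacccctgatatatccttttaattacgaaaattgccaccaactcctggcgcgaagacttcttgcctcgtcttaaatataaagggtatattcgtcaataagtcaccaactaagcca
TOC1: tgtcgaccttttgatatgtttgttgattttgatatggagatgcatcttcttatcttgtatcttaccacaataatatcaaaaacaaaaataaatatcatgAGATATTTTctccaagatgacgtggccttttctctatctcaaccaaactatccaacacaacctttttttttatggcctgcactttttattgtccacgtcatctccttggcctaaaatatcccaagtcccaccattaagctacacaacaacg

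The mitochondrial dysfunction motif, searched on both strands, was in the windows of 304 of 20718 genes tested (1.47%). It was in 47 of 861 windows of genes called and at least 2-fold higher (5.46%), in 3 of 642 of those at least 2-fold lower (0.467%), and in 18 of 97 of those at least 8-fold higher (18.6%), a threshold added after the values were seen. Of those 18 genes, 5 belong to the DUF295 family by their RefSeq product: AT4G25930, AT5G54450, AT5G54550, AT5G53230 and AT5G55150. Of 26 DUF295 genes tested, a family also picked after its values were seen, 11 rose, 7 of them at least 8-fold, and 3 fell. Also among the 18 was AT2G03130, a ClpS-family protein gene with a mean of 1.5 CPM on methyl viologen and no count in controls. The windows of NUDT24, UGT74E2, AOX1A, NDB4 and NAC13 did not hold these letters. The G-box was in 12.5% of windows of genes at least 2-fold higher, 5.92% of those at least 2-fold lower and 7.23% of all. The evening element stood at 1.74%, 4.21% and 2.51% in the same order, and the core TGACG of TGA factors, which overlaps the mitochondrial motif in NDB3, at 25.2%, 20.2% and 19.2%. In the iron lists the G-box was in the windows of 3 of 12 regulators, those printed above, and of 1 of 22 transport genes (4.55%). The windows of bHLH39, BHLH101, NAS4 and ZIF1 did not hold it. These shares are descriptions of letters, with no test.

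**Figure D2:**
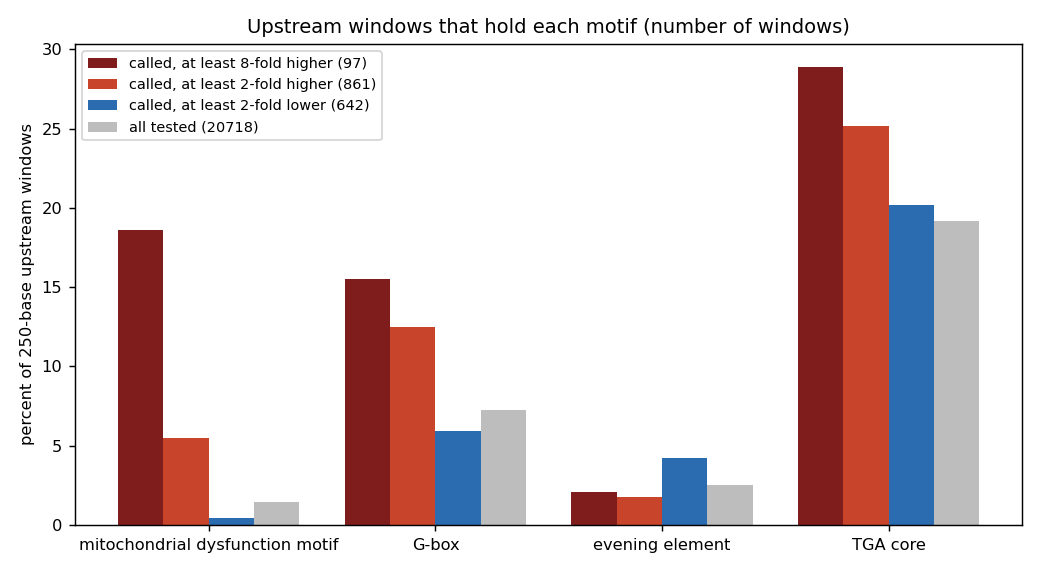
Percent of 250-base upstream windows holding each motif on either strand, for genes at least 8-fold higher, at least 2-fold higher and at least 2-fold lower on methyl viologen and for all genes tested, with the number of windows in the legend. The mitochondrial dysfunction motif stands at 18.6%, 5.46%, 0.467% and 1.47%, with no error drawn because genes are not replicates.

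Photosystem I and its electron carriers fell. Of 21 genes tested, 16 were lower and 2 higher on methyl viologen, with a median of −0.73 against −0.00125 over all genes. Their summed level was 18791, 20735 and 18967 CPM on methyl viologen, against 39526, 32410 and 33337 CPM in controls, so that each of the 3 treated libraries lay below each control. PSAN, a lumenal subunit beside the plastocyanin site, had 545, 693 and 560.3 CPM on methyl viologen and 2254, 1897 and 1946 CPM in controls (−1.76 ± 0.11, edgeR adjusted p = 1.49e-06). PSAF, the plastocyanin-docking subunit, had 1174, 1470.1 and 1339.8 CPM and, in controls, 4765, 3735 and 3759 CPM (−1.62 ± 0.13, edgeR adjusted p = 7.33e-06). FED A, the main leaf ferredoxin, which takes electrons from photosystem I, had 218, 286 and 263 CPM on methyl viologen, against 1168, 1013 and 921 CPM in controls (−2.02 ± 0.14, edgeR adjusted p = 1.88e-06). Libraries did not overlap for any of these 3 genes, as for 44.2% of all genes tested, and the rule that named PSAF required this. FD1, the minor leaf ferredoxin, gave 0.22 ± 0.09 (edgeR adjusted p = 0.102) and passed as a rise without med8 control replicate 3 (0.21). The members that rose were PGR5 (0.3 ± 0.09) and PGR5-LIKE A (0.38 ± 0.12), which route electrons from ferredoxin back to the plastoquinone pool in cyclic flow (edgeR adjusted p = 0.0231 and 0.0324). Both of these calls were lost without Col-0 control replicate 2 or 3 or methyl viologen replicate 1 or 2, and their values then stood at 0.24 to 0.34. PGR5-LIKE A also lost its call in the fit of the Col-0 libraries alone (0.38). Of the plastocyanin genes, DRT112, the abundant form, fell (−0.54 ± 0.11, edgeR adjusted p = 0.00311), and PETE1 gave −0.19 ± 0.11 (edgeR adjusted p = 0.216).

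Photosystem II and the antennae fell as well. In photosystem II 9 of 11 genes fell and none rose (median −0.75), from PSBTN at −1.28 to PSBR at −0.34, among them PSBO1, the manganese-stabilising protein of oxygen evolution, at 4808, 5289.7 and 4999.5 CPM on methyl viologen and 8429, 6869 and 7188 CPM in controls (−0.57 ± 0.11, edgeR adjusted p = 0.00213). Of 21 light-harvesting genes 15 fell and 1 rose (median −0.55). CAB1, a major antenna protein of photosystem II, had 14907, 15772 and 15197 CPM on methyl viologen, against 27990, 21536 and 23145 CPM in controls (−0.66 ± 0.12, edgeR adjusted p = 0.00178). LHB1B1 showed the largest fall among them, with 2398, 2999 and 2553 CPM and, in controls, 9336, 6287 and 7430.2 CPM (−1.54 ± 0.16, edgeR adjusted p = 3.51e-05). The LHCB1 genes, CAB1 to CAB3, LHB1B1 and LHB1B2, are near-identical, so reads may have been split between them. The antenna list summed to 77228, 84032 and 75987 CPM on methyl viologen and 144010, 107710 and 115550 CPM in controls. In whole seedlings fewer photosynthetic cells and less RNA per cell cannot be told apart. The shoot markers RBCS1A, CAB2 and CA1 together summed to 16726 to 17157 CPM on methyl viologen and 18671 to 22982 CPM in controls, and their part in these falls was not tested. Of them CA1 fell (−0.52), a call lost without Col-0 control replicate 1 (−0.35) or methyl viologen replicate 1 (−0.56) or 3 (−0.42).

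Carbon fixation genes moved in both directions. Of 20 Calvin cycle genes 6 fell and 2 rose (median −0.17), against 13.4% lower and 15.4% higher over all genes tested. RPE, ribulose-phosphate epimerase, fell (−1.07 ± 0.09, edgeR adjusted p = 1.26e-05), and the rubisco small subunit gene RBCS2B fell (−0.63 ± 0.11, edgeR adjusted p = 0.00103). RCA, rubisco activase, rose and gained more CPM than any other symbol-bearing gene that rose without overlap, with 7587, 7723 and 6795 CPM on methyl viologen, against 5613, 4742 and 4671 CPM in controls (0.56 ± 0.13, edgeR adjusted p = 0.0061). In photorespiration, which recycles the product of rubisco's reaction with oxygen, 3 of 12 genes rose and 2 fell (median −0.01). Those counts lie near the same shares. CAT2, the leaf catalase that removes photorespiratory peroxide, stood at 801, 906 and 749 CPM and, in controls, at 443, 388 and 356 CPM (1.05 ± 0.12, edgeR adjusted p = 9.11e-05). CAT3 did the reverse, with 842, 1433 and 1373 CPM on methyl viologen, against 3317, 5419 and 4989.7 CPM in controls (−1.91 ± 0.22, edgeR adjusted p = 7.01e-05). Neither gene's libraries overlapped, as for 44.2% of all genes tested, and the rule that named CAT3 required this.

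Chlorophyll synthesis fell at its entry and at its light-driven step. Of 20 genes 7 fell and none rose (median −0.26). HEMA1, glutamyl-tRNA reductase, the first committed enzyme, had 45.9, 74.2 and 51.1 CPM on methyl viologen, against 360.5, 297 and 256 CPM in controls (−2.42 ± 0.20, edgeR adjusted p = 7.94e-06). The protochlorophyllide oxidoreductase genes PORA (−2.34 ± 0.22, edgeR adjusted p = 2.58e-05) and PORB (−1.4 ± 0.13, edgeR adjusted p = 1.4e-05) fell too, PORB to 774, 913 and 865 CPM, against 2614, 2098 and 2025 CPM in controls, whereas POR C, the form of mature leaves, gave −0.13 and was not called. GUN5, a magnesium chelatase subunit, fell (−0.55 ± 0.16, edgeR adjusted p = 0.0264), a call lost without Col-0 control replicate 1 (−0.36), methyl viologen replicate 1 (−0.58) or 3 (−0.48). NYC1, a chlorophyll b reductase of chlorophyll breakdown, fell as well, at 12.2, 49.7 and 22.7 CPM on methyl viologen and 168, 199 and 180 CPM in controls (−2.69 ± 0.37, edgeR adjusted p = 0.000313). GPRI1, a GARP factor that turns on these genes, fell (−0.96 ± 0.08, edgeR adjusted p = 9.27e-06) and its partner GLK2 rose (0.56 ± 0.11, edgeR adjusted p = 0.00254). Among the sigma factors, which direct the plastid's own RNA polymerase, SIGA fell (−1.12 ± 0.11) and SIGE rose (1.32 ± 0.14, edgeR adjusted p = 2.52e-05 and 4.33e-05). Over the 13 plastid gene expression genes 3 rose and 2 fell, near the shares over all genes tested, 15.4% higher and 13.4% lower.

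Carotenoid genes moved both ways. Of 16 carotenoid and tocopherol genes 6 rose and 4 fell (median 0.09). BETA-OHASE 1, a carotene hydroxylase that leads to zeaxanthin, had 129.8, 95.2 and 87.1 CPM on methyl viologen, against 26.4, 23.4 and 24.8 CPM in controls (2.06 ± 0.17, edgeR adjusted p = 7.51e-06), and BETA-OHASE 2 rose too (1.48 ± 0.22, edgeR adjusted p = 0.000444). ABA1, zeaxanthin epoxidase, rose (0.81 ± 0.12, edgeR adjusted p = 0.00057), while NPQ1, the violaxanthin de-epoxidase that runs the same step backward in strong light, fell (−0.78 ± 0.08, edgeR adjusted p = 4.59e-05). LUT2, the lycopene cyclase that opens the lutein branch, fell (−0.4 ± 0.08, edgeR adjusted p = 0.00248). In tocopherol synthesis PDS1, hydroxyphenylpyruvate dioxygenase, and G-TMT, the last methyltransferase, rose (0.84 ± 0.09 and 0.65 ± 0.11, edgeR adjusted p = 4.02e-05 and 0.00125).

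**Figure D3:**
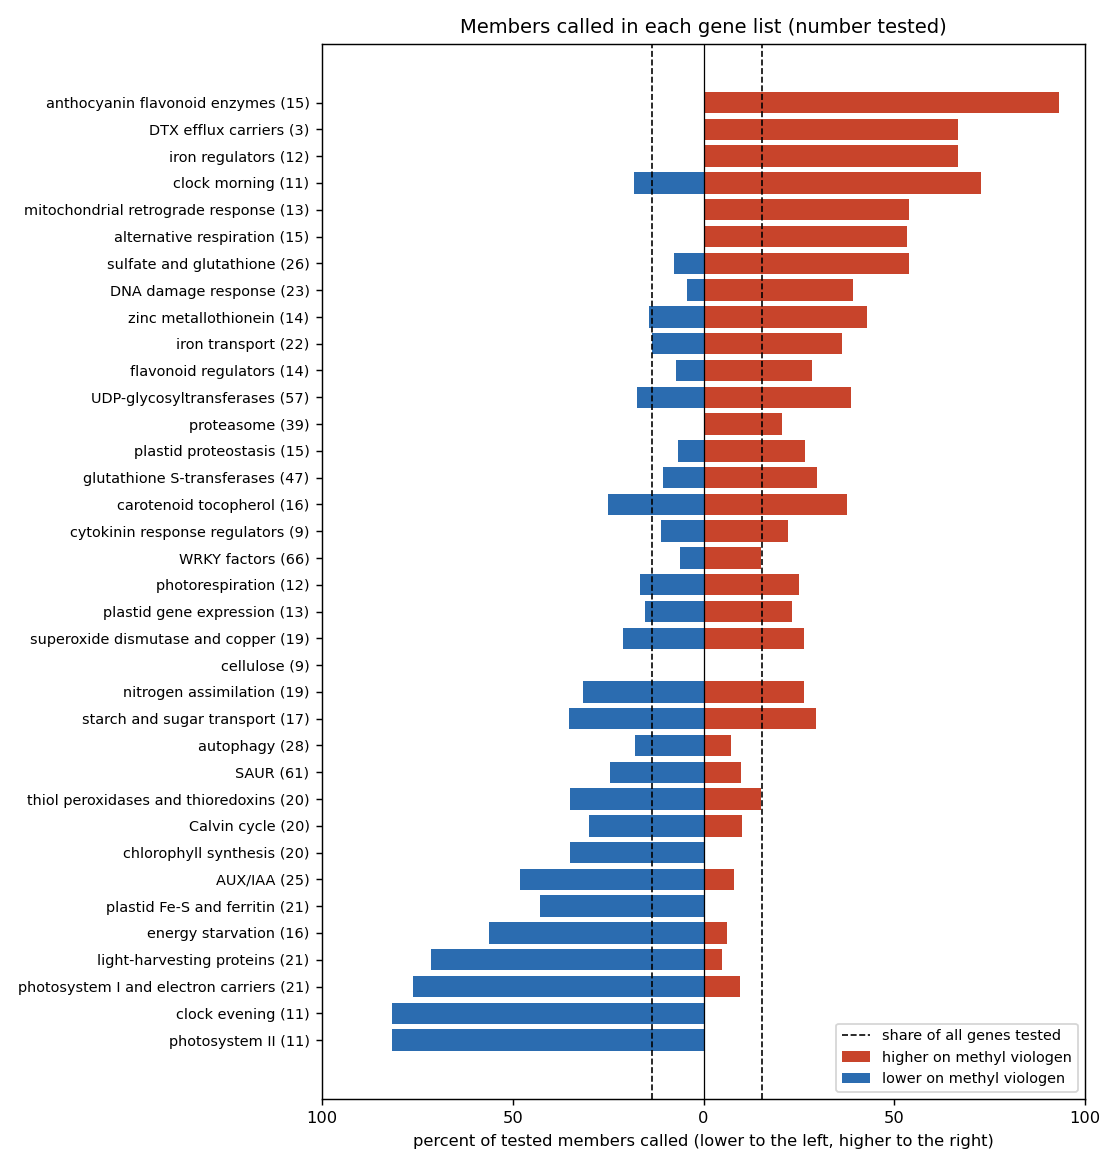
Percent of tested members called higher (red, to the right) and lower (blue, to the left) on methyl viologen in each of the 36 response lists, with the number tested in brackets. Dashed lines mark the shares over all genes tested, 15.4% higher and 13.4% lower.

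Iron storage and plastid iron-sulfur genes fell, and the iron shortage regulators rose. Of 21 genes of plastid iron-sulfur assembly and iron storage 9 fell and none rose (median −0.13). NEET, an iron-sulfur protein of plastids and mitochondria, had 0.271, 2.15 and 1.25 CPM on methyl viologen, against 46, 39.4 and 29.8 CPM in controls (−4.98 ± 0.41, edgeR adjusted p = 1.08e-05). ENH1, a rubredoxin-family protein of the plastid, had 5.69, 14.2 and 7.94 CPM on methyl viologen and 100.2, 111 and 86.7 CPM in controls (−3.43 ± 0.25, edgeR adjusted p = 4.87e-06). The ferritin FER4 had 2.52, 3.83 and 4.13 CPM and, in controls, 31.6, 41.6 and 33.6 CPM (−3.35 ± 0.17, edgeR adjusted p = 3.61e-07), and FER1 had 12.3, 14 and 10.7 CPM on methyl viologen, against 49.4, 127 and 57.5 CPM in controls (−2.66 ± 0.32, edgeR adjusted p = 0.000144). All treated libraries were below all controls for these 4 genes, which the rule for the largest falls required of them. Control replicate 2 had the most FER1. Of the SUF complex, which assembles clusters in the plastid, ABCI8 fell (−2.08 ± 0.16, edgeR adjusted p = 4.81e-06). The list members NFU2, ABCI7 and CPNIFS fell by at most 0.24, and NFU1, NFU3, HCF101, SUFE2 and CPSUFE were not called.

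Of 12 iron regulators 8 rose and none fell (median 1.29). The Ib bHLH genes, which switch on iron uptake, rose most. BHLH100 had 306, 237 and 190.4 CPM on methyl viologen, against 5.08, 4.14 and 8.93 CPM in controls (5.34 ± 0.31, edgeR adjusted p = 1.09e-06). Its relatives bHLH38 (5.2 ± 0.35), bHLH39 (4.47 ± 0.26) and BHLH101 (3.59 ± 0.16) rose likewise (edgeR adjusted p = 2.32e-06, 1.15e-06 and 3.15e-07), and the neighbours bHLH38 and bHLH39 are similar enough to share reads. BTS, a ubiquitin ligase that restrains the response, had 832, 779 and 692 CPM on methyl viologen and 137, 160.4 and 179.7 CPM in controls (2.27 ± 0.11, edgeR adjusted p = 3.36e-07), and PYE, a bHLH repressor, had 43.2, 40 and 40.4 CPM and, in controls, 10.9, 11.2 and 11.6 CPM (1.87 ± 0.08, edgeR adjusted p = 2.36e-07). AT2G30766, which RefSeq lists as uncharacterized, had 79.1, 69.8 and 69.4 CPM on methyl viologen, against 6.61, 7.08 and 7.64 CPM in controls (3.36 ± 0.13, edgeR adjusted p = 2.36e-07). ILR3 and FRU, which act above the Ib genes and beside them, gave −0.14 ± 0.05 and −0.37 ± 0.24 (edgeR adjusted p = 0.0614 and 0.273). ILR3 passed as a fall with upper-quartile scaling (−0.15) and DESeq2 (−0.14), and FRU without med8 control replicate 3 (−0.38).

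Iron transport genes followed in part, with 8 of 22 higher and 3 lower (median 0.71). OPT3, the phloem iron and copper transporter that reports shoot iron status to the root, had 612, 556 and 618 CPM on methyl viologen, against 111, 122 and 141 CPM in controls (2.25 ± 0.12, edgeR adjusted p = 4.81e-07). NRAMP4, which exports iron from the vacuole, had 197, 175 and 169.6 CPM on methyl viologen and 33.9, 42.4 and 45.7 CPM in controls (2.15 ± 0.10, edgeR adjusted p = 3.15e-07). NAS4, nicotianamine synthase, rose (3.09 ± 0.21, edgeR adjusted p = 2.33e-06), as did ZIF1, which loads nicotianamine into the vacuole (2.18 ± 0.11, edgeR adjusted p = 3.44e-07). In root uptake IRT1, the iron transporter of the root surface, rose (1.61 ± 0.38, edgeR adjusted p = 0.00828), and FRO2, its ferric reductase, gave 0.78 ± 0.34 (edgeR adjusted p = 0.11), which passed in the fits of the Col-0 libraries alone and without med8 control replicate 3 (0.78 in both). Those fits called up to 14 members of the list higher. The members that fell were the vacuolar iron transporter family genes AT1G21140 (−1.85 ± 0.32) and AT3G25190 (−1.50), and YSL1, a nicotianamine-metal transporter (−1.0 ± 0.26, edgeR adjusted p at most 0.0129 for the 3). Leaving out the first methyl viologen library of Col-0 ended the call of YSL1 (−0.94), and its value was −0.61 without Col-0 control replicate 2.

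**Figure D4:**
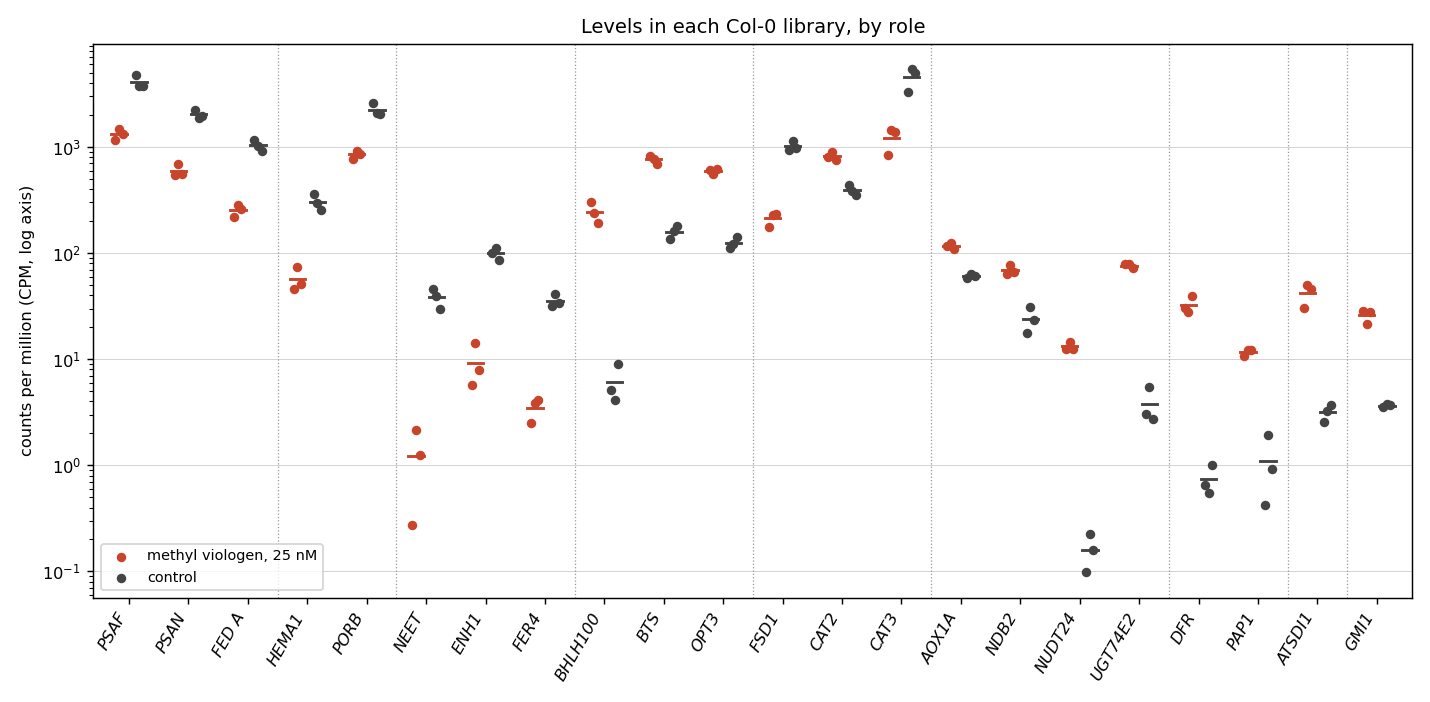
CPM (log axis) of 22 genes in each Col-0 library, methyl viologen in red to the left and control in dark grey to the right, with bars at the means of 3 libraries. Dotted lines part photosystem I, chlorophyll, iron-sulfur and iron storage, iron regulation, superoxide and peroxide removal, mitochondrial response, anthocyanin, sulfur and DNA damage genes. Treated and control libraries do not overlap for any of them, as for 44.2% of all genes tested, and some were named under a rule that required this.

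FSD1 fell among the superoxide dismutases, and the other members named here were not called. FSD1, the abundant iron enzyme, had 177, 230.4 and 232 CPM on methyl viologen, against 941, 1144 and 973 CPM in controls (−2.26 ± 0.12, edgeR adjusted p = 5.1e-07). The copper and zinc enzymes CSD1 (−0.36 ± 0.16) and CSD2 (−0.18 ± 0.13), their copper chaperone CCS (−0.09 ± 0.08), and the plastid iron enzymes FSD2 (0.11 ± 0.18) and FSD3 (0.1 ± 0.17) were not called (edgeR adjusted p = 0.108, 0.313, 0.428, 0.703 and 0.719). CSD1 passed as a fall without Col-0 control replicate 1 (−0.49) and without med8 control replicate 3 (−0.36). Over the superoxide dismutase and copper list 5 of 19 rose and 4 fell, with 2 to 5 lower over the alternatives. The shares over all genes tested were 15.4% higher and 13.4% lower. FRO3, a mitochondrial ferric reductase, had 376, 339.7 and 312 CPM on methyl viologen and 70.6, 77.7 and 89.2 CPM in controls (2.11 ± 0.12, edgeR adjusted p = 5.67e-07). The copper transporter COPT2 and the metal transporter YSL2 rose (1.11 ± 0.18 and 1.28 ± 0.08, edgeR adjusted p = 0.00104 and 1.18e-06), and FRO4, a copper reductase of the root surface, fell (−1.94 ± 0.28, edgeR adjusted p = 0.000379). SPL7, the regulator of copper shortage, rose by 0.25 ± 0.06 (edgeR adjusted p = 0.0064).

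Thiol peroxidases and thioredoxins fell more often than they rose, 7 against 3 of 20 (median −0.12). Over all genes tested 13.4% were lower and 15.4% higher. 2-Cys Prx B, the plastid peroxiredoxin, fell (−0.52 ± 0.11, edgeR adjusted p = 0.00445), as did the thioredoxins THM1 (−0.56 ± 0.08) and TRXF1 (−0.4 ± 0.08, edgeR adjusted p = 0.000267 and 0.00221). GPX7, a plastid glutathione peroxidase homologue, stood out as a rise, with 6.61, 5.63 and 4.44 CPM on methyl viologen, against 1.11, 1.07 and 1.36 CPM in controls (2.24 ± 0.21, edgeR adjusted p = 1.78e-05).

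Alternative respiration, which passes electrons on without pumping protons, rose. Of 15 genes 8 rose and none fell (median 0.59). The list also holds the carrier genes PUMP1, UCP5, DIC2 and DIC3 and the plastid oxidase gene IM. NDB4, an external NAD(P)H dehydrogenase, had 9.08, 6.5 and 10.4 CPM on methyl viologen, against 0.0977, 0.0969 and 0 CPM in controls (6.99 ± 0.46, edgeR adjusted p = 1.77e-06). NDB3 had 302 counts on methyl viologen and 1 count in controls, a ratio of 265 with a 95% counting interval of 47.1 to 10500, and that interval covers counting error only. NDB2, which works with the alternative oxidase, had 62.9, 77.6 and 66 CPM on methyl viologen and 17.7, 31 and 23.6 CPM in controls (1.51 ± 0.19, edgeR adjusted p = 0.000172). The internal dehydrogenase NDA1 rose (1.34 ± 0.13, edgeR adjusted p = 3.25e-05). AOX1A, the main alternative oxidase, had 115, 125 and 110 CPM and, in controls, 58.7, 63.6 and 61.1 CPM (0.93 ± 0.11, edgeR adjusted p = 9.66e-05). AOX1D also passed (1.31 ± 0.39, edgeR adjusted p = 0.0272), a call lost in the fits of Col-0 libraries alone (1.31) and without Col-0 control replicate 1 (0.98) or 3 (1.19) or methyl viologen replicate 2 (1.02). NDB1 and the plastid enzyme NDC1 were not called.

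Genes that respond to signals from the mitochondrion rose. Of 13 genes of this response 7 rose and none fell (median 0.89). NUDT24, a Nudix hydrolase, had 12.6, 14.6 and 12.4 CPM on methyl viologen, against 0.0977, 0.226 and 0.158 CPM in controls (6.33 ± 0.46, edgeR adjusted p = 3.41e-06). UGT74E2, a glucosyltransferase of indole-butyric acid, had 78.5, 78.3 and 71.8 CPM on methyl viologen and 3.06, 5.46 and 2.75 CPM in controls (4.34 ± 0.22, edgeR adjusted p = 4.68e-07). AT2G21640, which is outside the list and whose window is printed above, had 42.2, 30.5 and 35.9 CPM and, in controls, 3.94, 3.52 and 3.12 CPM (3.36 ± 0.16, edgeR adjusted p = 3.15e-07). Of the regulators, NAC13 rose (1.8 ± 0.11, edgeR adjusted p = 1.15e-06), and NAC017 and RCD1, which binds and restrains these NAC factors, gave 0.09 ± 0.07 and 0.18 ± 0.07 (edgeR adjusted p = 0.382 and 0.0719). RCD1 passed with DESeq2 and without med8 control replicate 3 (0.18 in both).

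Genes of sulfate assimilation rose. Of 26 sulfur genes 14 rose and 2 fell (median 0.37). The adenylylsulfate reductases, which set the pace of sulfate reduction, rose together: APR3 had 233, 259 and 278 CPM on methyl viologen, against 67.7, 93.1 and 101 CPM in controls (1.56 ± 0.14, edgeR adjusted p = 1.87e-05), and APR1 and APR2 gave 1.25 ± 0.12 and 1.24 ± 0.10 (edgeR adjusted p = 2.66e-05 and 6.01e-06). The markers of low sulfur ATSDI1, LSU1 and LSU2 rose (3.73 ± 0.30, 2.5 ± 0.23 and 1.99 ± 0.15, edgeR adjusted p = 7.67e-06, 2.09e-05 and 3.15e-06), ATSDI1 to 30.4, 49.6 and 46.4 CPM, against 2.57, 3.26 and 3.66 CPM in controls. SULTR4;2, which unloads sulfate from the vacuole, rose (1.63 ± 0.12, edgeR adjusted p = 4.81e-06), whereas the root uptake genes SULTR1;1 and SULTR1;2 stood at −0.66 and −0.51 and were not called. APS4, an ATP sulfurylase, fell (−1.13 ± 0.14, edgeR adjusted p = 0.000146). The glutathione synthesis genes GSH1 and GSH2 stood at −0.20 and −0.18, not called, and AT5G26220, a ChaC-like protein gene, rose (2.46 ± 0.16, edgeR adjusted p = 1.62e-06).

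In both detoxifying families tested rises outnumbered falls. Among 47 glutathione S-transferases 14 rose and 5 fell (median 0.24), and among 57 UDP-glycosyltransferases 22 rose and 10 fell (median 0.21), both families in which near-identical neighbours may share reads. GSTU25 had 149.7, 194 and 163 CPM on methyl viologen, against 10.1, 8.85 and 9.03 CPM in controls (4.18 ± 0.25, edgeR adjusted p = 1.15e-06). DOGT1, a glucosyltransferase of brassinosteroids and toxins, had 50.4, 49.5 and 42.1 CPM on methyl viologen and 7.36, 11.1 and 9.59 CPM in controls (2.34 ± 0.16, edgeR adjusted p = 2.31e-06). Of the efflux carriers DTX1 rose (1.21 ± 0.26, edgeR adjusted p = 0.00482).

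Anthocyanin synthesis rose. Of 15 enzymes 14 rose and none fell (median 1.42). The early enzymes PAL1, C4H, TT4, TT5 and FLS1 lay between 0.37 and 1.45. Among later steps, DFR, dihydroflavonol reductase, had 30.1, 27.9 and 39.2 CPM on methyl viologen, against 0.651, 0.549 and 1.01 CPM in controls (5.45 ± 0.33, edgeR adjusted p = 1.21e-06). LDOX, UF3GT, the anthocyanin malonyltransferase AT5MAT and GSTF12, which brings anthocyanin to the vacuole, rose by 4.79 ± 0.38, 4.97 ± 0.37, 4.44 ± 0.34 and 4.54 ± 0.30 (edgeR adjusted p at most 7.22e-06 for the 4), whereas UGT78D2, a flavonoid glucosyltransferase that also acts on anthocyanidins, rose by 0.99 ± 0.07 (edgeR adjusted p = 3.8e-06). Of 14 regulators 4 rose and 1 fell. PAP1, the MYB factor that drives the late genes, had 10.7, 12.2 and 12.3 CPM on methyl viologen and 0.423, 1.94 and 0.915 CPM in controls (3.42 ± 0.37, edgeR adjusted p = 5.18e-05), and its bHLH partner TT8 rose (4.81 ± 0.61, edgeR adjusted p = 0.000166). MYBL2, a repressor of the pathway, fell (−0.71 ± 0.11, edgeR adjusted p = 0.000825). MYB90 had 24 counts on methyl viologen and 2 in controls, a ratio of 10.5 with a counting interval of 2.61 to 91.8, and was not called (edgeR adjusted p = 0.1), though it passed when the first methyl viologen library of Col-0 was left out (3.79, edgeR adjusted p = 0.0146).

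DNA damage genes rose in part. Of 23 genes 9 rose and 1 fell (median 0.21). GMI1, a gene induced by gamma rays, had 28.8, 21.5 and 27.6 CPM on methyl viologen, against 3.52, 3.75 and 3.66 CPM in controls (2.83 ± 0.19, edgeR adjusted p = 1.79e-06). NAC044, a NAC factor that stops the cell cycle after damage, had 10.8, 6.06 and 11.1 CPM on methyl viologen and 0.619, 0.485 and 0.537 CPM in controls (4.08 ± 0.34, edgeR adjusted p = 8.68e-06). Its relative NAC085 had 54 counts on methyl viologen and 0 in controls, at least 15.8-fold higher with a floor of 3 counts over the control group. TSO2, a ribonucleotide reductase subunit, rose (1.21 ± 0.12, edgeR adjusted p = 3.46e-05), as did AT1G07500 (2.95 ± 0.30, edgeR adjusted p = 3.2e-05). BRCA1 (0.07 ± 0.18), PARP1 (0.03 ± 0.13) and CYCB1;1 (0.31 ± 0.31), known to be induced by DNA breaks, were not called (edgeR adjusted p = 0.8, 0.896 and 0.492). UVR3, a photolyase, fell (−1.12 ± 0.11, edgeR adjusted p = 2.2e-05).

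Circadian clock genes differed between the groups. Of 11 morning genes 8 rose and 2 fell (median 1.06), and of 11 evening genes 9 fell and none rose (median −0.74). CCA1 and LHY are MYB factors that peak at dawn and repress the evening genes. CCA1 had 117, 93.8 and 79.7 CPM on methyl viologen, against 16.4, 13.1 and 16.9 CPM in controls (2.65 ± 0.17, edgeR adjusted p = 1.77e-06), and LHY had 23.7, 18.6 and 16.9 CPM on methyl viologen and 2.96, 2.49 and 3.12 CPM in controls (2.79 ± 0.18, edgeR adjusted p = 1.63e-06). RVE8, RVE1 and PRR9 rose (2.55 ± 0.16, 2.26 ± 0.21 and 1.51 ± 0.13, edgeR adjusted p = 1.18e-06, 1.72e-05 and 9.27e-06). PRR7, which follows PRR9 in the day, and RVE2 were the members of the morning list that fell (−0.22 ± 0.07 and −0.42 ± 0.11, edgeR adjusted p = 0.0348 and 0.0119), and PRR7 lost its call in 7 alternatives, with values of −0.24 to −0.14. Among evening genes FKF1, a blue-light F-box protein, had 26.4, 35.3 and 38.9 CPM on methyl viologen, against 75.7, 78.8 and 80.5 CPM in controls (−1.23 ± 0.11, edgeR adjusted p = 1.66e-05). TOC1 had 72.9, 87.6 and 85.7 CPM on methyl viologen and 133, 141 and 134 CPM in controls (−0.73 ± 0.08, edgeR adjusted p = 3.74e-05), and BOA, PRR3, PRR5 and GI fell, at −1.38 ± 0.16, −1.32 ± 0.12, −0.85 ± 0.09 and −0.74 ± 0.08 (edgeR adjusted p at most 0.000102 for the 4). The blue-light F-box genes ZTL and LKP2 gave 0.08 ± 0.07 and −0.02 ± 0.07 (edgeR adjusted p = 0.402 and 0.876). The evening element was in the windows of 5 of the 11 evening genes (45.5%). Since the labels give no hour of harvest, a different hour and a different phase cannot be told apart, and many genes of photosynthesis, starch and nitrogen described here are known to follow the day. The part of the clock in those results was not tested.

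**Figure D5:**
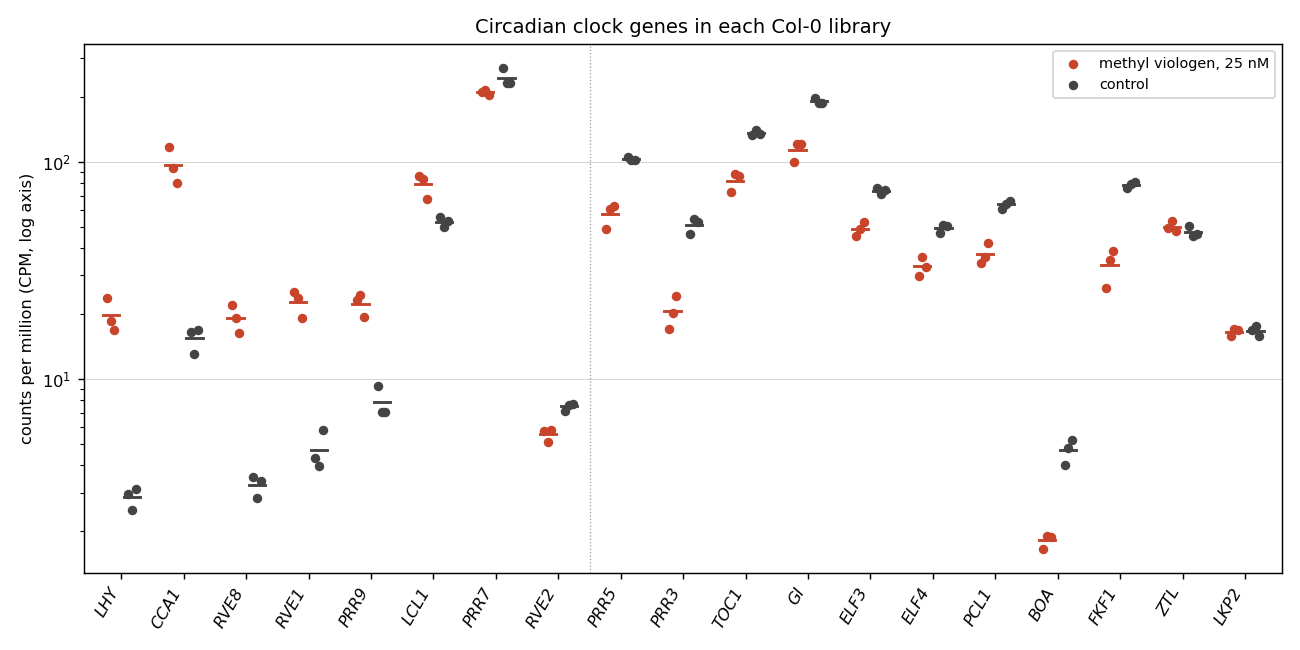
CPM (log axis) of 19 clock genes in each Col-0 library, methyl viologen in red to the left and control in dark grey to the right, with bars at the means and a dotted line between morning and evening genes. LHY, CCA1, RVE8, RVE1, PRR9 and LCL1 are higher in all treated libraries, and PRR5 to FKF1 are lower in all of them.

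Genes of carbon and nitrogen supply shifted. Of 16 energy starvation genes, which the kinase SnRK1 turns on when sugar runs short, 9 fell and 1 rose (median −0.41). ASN1, asparagine synthetase, had 27.6, 32.1 and 32.2 CPM on methyl viologen, against 96, 67.3 and 104 CPM in controls (−1.54 ± 0.16, edgeR adjusted p = 4.82e-05), and TPS11, a class II trehalose phosphate synthase, fell (−0.97 ± 0.14, edgeR adjusted p = 0.000376). In starch and sugar transport 5 of 17 rose and 6 fell. GBSS1, the amylose synthase, had 120.5, 111 and 105 CPM on methyl viologen and 16.9, 11.9 and 14.3 CPM in controls (2.96 ± 0.18, edgeR adjusted p = 1.04e-06). SEX1, the dikinase that starts starch breakdown, fell (−0.91 ± 0.10, edgeR adjusted p = 4.76e-05), as did CT-BMY, the plastid beta-amylase (−0.68 ± 0.10, edgeR adjusted p = 0.000492). SAG29, a sugar transporter of the SWEET family, had 20.8, 23.8 and 13.7 CPM on methyl viologen, against 0.651, 0.355 and 0.694 CPM in controls (5.09 ± 0.27, edgeR adjusted p = 4.81e-07). The nitrate reductases NIA2 (1.17 ± 0.07) and NIA1 (0.95 ± 0.09) rose and the next enzyme NIR1 fell (−0.79 ± 0.09, edgeR adjusted p = 1.21e-06, 1.47e-05 and 0.000102), NIA2 to 1739, 1657 and 1732 CPM, against 708, 780.1 and 789 CPM in controls. Over the nitrogen list 5 of 19 rose and 6 fell.

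Auxin response genes fell more often than they rose. Counts in this paragraph are to be read beside the shares over all genes tested, 15.4% higher and 13.4% lower. Of 25 AUX/IAA repressors 12 fell and 2 rose (median −0.34), the falls including IAA6 (−2.37 ± 0.26), IAA29 (−2.13 ± 0.29) and SHY2 (−0.85 ± 0.11, edgeR adjusted p = 5.08e-05, 0.000279 and 0.000198). Of 61 SAUR genes, small auxin-induced growth genes that lie in arrays of close copies, 15 fell and 6 rose. The falls numbered 9 without Col-0 control replicate 3 and 8 without methyl viologen replicate 3, and the rises 3 without control replicate 1 or 2. In the cytokinin response regulators ARR3 rose (1.74 ± 0.27, edgeR adjusted p = 0.000693) and RR16 fell (−1.34 ± 0.27, edgeR adjusted p = 0.0034), with 2 of 9 higher and 1 lower. The cellulose synthase gene CESA1 stood at −0.12 ± 0.08 (edgeR adjusted p = 0.31). Of 39 proteasome genes 8 rose and none fell (median 0.11), by 0.18 to 0.41, but 4 rose in the fit of the Col-0 libraries alone and without methyl viologen replicate 3, and 5 without any 1 of the Col-0 controls. Autophagy genes gave 2 higher and 5 lower of 28, with 0 to 2 higher and 3 to 7 lower over the alternatives, the 0 being without Col-0 control replicate 1 or methyl viologen replicate 2 and the 3 without control replicate 2 or 3 or methyl viologen replicate 1. ATG8D was the largest fall (−0.57 ± 0.11, edgeR adjusted p = 0.00238). Plastid chaperones and proteases had 4 higher and 1 lower of 15, with CR88, the plastid HSP90, at 0.83 ± 0.19, FTSH8 at 0.56 ± 0.09 and CLPB3 at 0.57 ± 0.07 (edgeR adjusted p = 0.00598, 0.000659 and 0.000153). Zinc transporters and metallothioneins had 6 higher and 2 lower of 14, ZIP1 rising (1.11 ± 0.20) and ZIP3 falling (−1.76 ± 0.30, edgeR adjusted p = 0.00143 and 0.00128).

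Some named genes belonged to no list. The cytosolic glycolysis genes GAPC1 and LOS2, which encodes enolase, rose (1.27 ± 0.08 and 0.92 ± 0.10, edgeR adjusted p = 1.15e-06 and 4.59e-05), GAPC1 to 1422, 1463 and 1482 CPM, against 558, 625 and 631 CPM in controls. ORG1, an OBP3-responsive gene, had 1059, 943 and 884 CPM on methyl viologen and 144, 171 and 192 CPM in controls (2.51 ± 0.12, edgeR adjusted p = 3.15e-07). HSC70-1, the cytosolic chaperone, rose (0.66 ± 0.11, edgeR adjusted p = 0.00107). LAC7, a laccase, and COR413IM1, a cold-regulated protein of the plastid envelope, fell (−3.03 ± 0.35 and −2.61 ± 0.23, edgeR adjusted p = 9.41e-05 and 1.74e-05). LEA7, a late embryogenesis abundant protein gene, had 15.5, 6.33 and 21.8 CPM on methyl viologen, against 0.0326, 0.42 and 0.158 CPM in controls (6.13 ± 1.19, edgeR adjusted p = 0.00276).

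Genes of pathogen defence varied among the controls. PR1 had 0.515, 3.95 and 1.88 CPM on methyl viologen, against 0.391, 121 and 84.8 CPM in controls (−5.04 ± 1.39, edgeR adjusted p = 0.0189), so that control replicate 1 lay below every treated library and the groups overlapped. Its call was lost in the fit of the Col-0 libraries alone (−5.04) and without Col-0 control replicate 2 (−4.35), methyl viologen replicate 1 (−4.56) or 3 (−4.96). WRKY70, a switch of salicylic acid signalling, had 3.85, 7.25 and 7.57 CPM and, in controls, 16.3, 49.5 and 30.4 CPM (−2.37 ± 0.38, edgeR adjusted p = 0.000914), and PCC1 had 12, 17.1 and 6.15 CPM on methyl viologen and 72.5, 184 and 144 CPM in controls (−3.5 ± 0.41, edgeR adjusted p = 0.00011). LOX2, a jasmonate synthesis enzyme, rose (0.95 ± 0.31, edgeR adjusted p = 0.0382) with 1047, 1407 and 1241 CPM on methyl viologen, against 319.6, 997 and 596 CPM in controls, and lost its call in 9 alternatives, at 0.84 to 1.05, standing at 0.63 without Col-0 control replicate 1. Over 66 WRKY genes 10 rose and 4 fell, with 5 to 13 higher and 3 to 10 lower over the alternatives. The main counts are not above the shares over all genes tested, 15.4% higher and 13.4% lower. The rises numbered 5 without Col-0 control replicate 1 and 6 without methyl viologen replicate 3, and the falls 9 in the fit of the Col-0 libraries alone and 10 without med8 control replicate 3.

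Markers of the tissues that a seedling holds gave no single direction. Of 12 root markers 3 rose and 3 fell, and the list summed to 2001, 2678 and 1809 CPM on methyl viologen and 1525, 1906 and 1865 CPM in controls, most of it from PYK10, a root beta-glucosidase that was not called. The root hair genes SHV2, EXPA7 and LRX1 made up the falls, whose number ranged from 0 to 5 over the alternatives. It was 0 without Col-0 methyl viologen replicate 1, 1 without any 1 Col-0 control, methyl viologen replicate 3 or any 1 med8 methyl viologen library, and 5 in the fit of the Col-0 libraries alone and without med8 control replicate 3. The endodermis factor SCR rose (0.31 ± 0.06, edgeR adjusted p = 0.0037), as did THAS1, a triterpene synthase of the root (2.4 ± 0.34, edgeR adjusted p = 0.000347). All 3 trichome genes fell, MYB0 (−1.5 ± 0.38), GL2 (−1.22 ± 0.38) and TRY (−0.78 ± 0.27, edgeR adjusted p = 0.0126, 0.0339 and 0.0499), but none of these calls held without control replicate 3 of Col-0 (−1.21, −0.81 and −0.68) and without methyl viologen replicate 1 (−1.35, −1.12 and −0.84) or 3 (−1.35, −1.10 and −0.72), and TRY lost it in 13 of 19 alternatives. Stomatal markers summed to 65.1 to 71.1 CPM on methyl viologen and 75.6 to 88.0 CPM in controls, with 2 of 6 lower, or 1 without Col-0 control replicate 3. Vascular markers had 0 of 5 higher and 1 lower, with 0 to 1 higher and 1 to 2 lower over the alternatives. The meristem marker STM gave 1.87 ± 0.73 (edgeR adjusted p = 0.0793) and passed with DESeq2 (1.86), without Col-0 methyl viologen replicate 2 (2.28) and without med8 control replicate 3 (1.87). The senescent leaf marker SAG13 gave −1.46 ± 0.64 (edgeR adjusted p = 0.114) and passed without Col-0 control replicate 1 (−1.92). None of the seed markers passed the count filter, and the flower marker SEP3 stood at 3.06, 2.47 and 4.07 CPM and, in controls, at 4.49, 7.98 and 6.56 CPM. How far a shift in tissue shares bears on the groups of genes above was not tested.

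The Col-0 response was set against that of med8 with the interaction in the same fit, which called 2885 genes (13.9%), 1589 with a higher and 1296 with a lower log2 fold change in Col-0. Of the 5969 genes called in Col-0, 1325 (22.2%) had such a difference. Differences were frequent in the clock, with 10 of 11 morning genes higher and 9 of 11 evening genes lower in Col-0. CCA1 gave 2.65 in Col-0 and 0.7 in med8 (difference 1.94, edgeR adjusted p = 0.000335), and FKF1 gave −1.23 in Col-0 and 0.13 in med8 (difference −1.35, edgeR adjusted p = 0.000229). They were frequent also where Col-0 itself changed little: 11 of 12 photorespiration genes and 10 of 20 Calvin cycle genes had a higher log2 fold change in Col-0 and none a lower one. RCA gave 0.56 in Col-0 and −0.75 in med8 (difference 1.31, edgeR adjusted p = 0.000621), and GLDP2, a subunit of glycine decarboxylase, gave 0.79 in Col-0 and −0.45 in med8 (difference 1.24, edgeR adjusted p = 9.34e-05). In the iron regulators 7 of 12 were higher and 1 lower in Col-0, and in iron transport 4 of 22 were higher and 7 lower. BHLH100 gave 5.34 in Col-0 and −0.03 in med8 (difference 5.37, edgeR adjusted p = 2.01e-05), and PYE 1.87 in Col-0 and 0.37 in med8 (difference 1.5, edgeR adjusted p = 1.39e-05). The control level of BHLH100 was already higher in med8, at 38.3, 30.7 and 46.9 CPM, against 5.08, 4.14 and 8.93 CPM in Col-0.

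In the mitochondrial list 0 of 13 were higher and 2 lower in Col-0, in the sulfur list 1 of 26 higher and 2 lower, among anthocyanin enzymes 2 of 15 higher, and among proteasome genes 0 of 39 either way, against 13.9% called over all genes. AT2G21640, outside the mitochondrial list, gave 3.36 in Col-0 and 2.53 in med8 (difference 0.83, edgeR adjusted p = 0.0246). In alternative respiration 2 of 15 genes were higher and 3 lower in Col-0. UGT74E2 gave 4.34 in Col-0 and 4.59 in med8 (difference −0.25, edgeR adjusted p = 0.644), NAC13 gave 1.8 in Col-0 and 1.73 in med8 (difference 0.06, edgeR adjusted p = 0.85), and DFR gave 5.45 in Col-0 and 4.75 in med8 (difference 0.7, edgeR adjusted p = 0.387). A difference that misses the threshold does not show that the genotypes respond alike. In the light-harvesting list 2 of 21 genes were higher and 0 lower in Col-0, and in photosystem I 3 of 21 each way, FED A at −2.02 in Col-0 and −0.83 in med8 (difference −1.18, edgeR adjusted p = 0.0016).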

How the data were processed

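The authors deposited 1 table of raw counts per gene, unnormalized, with 21543 nuclear loci in 12 libraries. Per the submitters' processing notes, reads were trimmed with Trim Galore 0.3.3, aligned to TAIR10 with TopHat2 2.1.0 and counted with featureCounts of Subread 1.4.6. Libraries were made with a stranded mRNA kit and read as 75 bp single ends, per the labels, but the strand setting of the counting is not given in the sources used here, so overlapping and antisense genes are uncertain. Every locus has at least 5 counts in at least 3 libraries, and organelle genes are not analysed here. RefSeq's TAIR10.1 held 21519 of the loci and gave symbols to 9329 loci. It also gave products and upstream windows.

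Counts were fitted in edgeR 4.0.16 (R 4.3.3) with TMM scaling, filterByExpr (minimum count 10, total 15, 802 loci removed) and glmQLFit with the robust option, 4 group means. All 12 libraries entered, for a shared estimate of spread. Calls are Benjamini-Hochberg adjusted p under 0.05 over all 20741 genes. In data simulated on these libraries, with 20594 genes, 87% of 2-fold and 96% of 4-fold changes were recovered, and 5.18% of calls were false. Only 100 genes were changed at each fold, all of at least 1 CPM, and all groups otherwise shared the same mean. The data gave 5969 calls, also at lower levels, so these rates need not hold for them. Floors of 3 counts and 95% exact binomial intervals cover counting error only.

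The comparison, the 45 gene lists (36 of responses, 9 of tissue markers) and the rules were chosen with earlier results of these data known. List entries without a matching RefSeq name (21) and pattern matches of other families (32) were dropped by annotation. Genes named are the 10 largest rises and falls with a symbol, 10 CPM and no overlap of libraries, the 8 largest gains and losses of CPM, for each list its 3 called members of lowest adjusted p or else its 2 of highest level, and 12 fixed genes. Further list members were picked for the text with values in view. Results were recomputed with DESeq2 1.42.0, a replicate block, the Col-0 libraries alone, each library left out, a filter of 1 CPM in 3 libraries or none, and scaling by RLE or upper quartile. The result of 1 gene is not reported here.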

Additional observations from a re-analysis of the deposited data

Results flagged for a closer look

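For 28 of the genes named in the text, the methyl viologen response differed between Col-0 and med8 by edgeR's test of the interaction (Benjamini-Hochberg adjusted p under 0.05) and by at least 4-fold, which is 2 on the log2 scale. A further 72 named genes passed with a smaller difference. Values are the log2 fold change in Col-0 minus that in med8, each from 3 libraries a group, and no explanation was tested.

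In iron supply the differences were 5.37 for BHLH100, 4.82 for bHLH38, 4.37 for BHLH101, 3.71 for bHLH39, 3.09 for AT2G30766, 2.34 for BTS, 2.13 for ZIF1, 2.15 for FRO3 and 2.01 for OPT3, so that the log2 fold changes of these genes were higher in Col-0. Over the whole iron transport list 4 of 22 genes had a higher and 7 a lower log2 fold change in Col-0. The iron storage and plastid iron-sulfur genes flagged here went the other way, with −3.89 for NEET, −3.66 for FER1, −2.68 for ENH1 and −2.55 for FER4. Their list as a whole was split, with 6 of 21 genes at a higher and 6 at a lower log2 fold change in Col-0. The vacuolar iron transporter family gene AT1G21140 stood at −3.26 and the zinc transporter gene ZIP3 at −2.35. Control levels of the genotypes were not alike for all of these genes. BHLH100 had 38.3, 30.7 and 46.9 CPM in med8 controls, against 5.08, 4.14 and 8.93 CPM in Col-0 controls. FER4 had similar levels, with 30.6, 36.8 and 36.2 CPM in med8 controls and 31.6, 41.6 and 33.6 CPM in Col-0 controls.

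Outside metal supply the positive differences were 8.05 for LEA7, 4.47 for SAG29, 3.3 for GPX7, 3.14 for RVE1, 2.81 for BETA-OHASE 1 and 2.69 for ORG1. The negative ones were −7.59 for PR1, −5.56 for PCC1, −5.2 for NRT2:1, −4.41 for WRKY70, −4.24 for WRKY54, −3.38 for COR413IM1 and −2.26 for CAT3. Control levels differed here too for PCC1, at 26.7, 39.1 and 36.6 CPM in med8 and 72.5, 184 and 144 CPM in Col-0. LEA7 had 0.289, 0.246 and 0.365 CPM on methyl viologen and 0.0344, 3.38 and 0 CPM in controls of med8, and its difference was 2.29 and not called without med8 control replicate 2. PR1 rests on Col-0 controls that differed widely, at 0.391 CPM in replicate 1 and 121 and 84.8 CPM in the others, and its difference lost its call in 9 alternatives, at −8.41 to −6.89.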

How the results depend on the processing

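Each of 19 alternatives left the counts of genes called, higher, lower and at least 2-fold changed within 1.5 times their values, with 4391 to 7375 genes called, and all genes called in both fits had the same direction. The calls of the alternatives covered 71.8% to 99.7% of the 5969. The count of genes whose response differed between Col-0 and med8 was 1912 without Col-0 methyl viologen replicate 1 and 1874 without med8 methyl viologen replicate 2, against 2885, with 1874 to 3332 over all libraries left out in turn; the cause was not tested. Of 198 named genes called, 176 were past the threshold with the same direction in every alternative that kept them. Alternative respiration had 5 genes higher in the fit of the Col-0 libraries alone, against 8, and sulfur genes had 4 lower without Col-0 control replicate 1, against 2. Cytokinin regulators had 1 to 2 higher and zinc genes 1 to 3 lower. The median of all genes lay between −0.013 and 0.001, and the share of calls that were higher lay between 50.9% and 55.0%.

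The direction turned in 5 uncalled genes near 0 when a library was left out, where NAC6 ranged from −0.0965 to 0.1705, MED8 from −0.0 to 0.099, LKP2 from −0.0555 to 0.0156, PARP1 from −0.0649 to 0.1184 and BRCA1 from −0.0359 to 0.2101; the cause was not tested. Whether the replicate numbers pair the samples is not given by the labels, and a few correlations cannot decide it. Deviations of same-numbered Col-0 control and methyl viologen libraries correlated at 0.35, 0.084 and −0.04. Those of differently numbered ones lay between −0.255 and 0.205. The fit with the replicate block called 5639 genes, 5481 of them among the 5969. Depth limits genes at the low end: with 0 to 3 counts in a group a fold is a ratio or bound. Genes under the depositors' minimum are not analysed here.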
